A study of Mus musculus with 15 samples.

Results

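The genes described here are 7 markers of the germinal centre B cell: Gcsam, S1pr2, Mybl1, Mef2b, Fas, Eaf2 and Rgs13. They were taken by gene symbol, and each matched 1 of the 51912 gene identifiers in the deposited table. All 7 were among the 15692 genes that passed the filter on low counts. Their RNA was measured in wild-type mouse B cells by RNA sequencing, with 3 libraries from independent biological replicates in each of 5 groups (15 libraries). All B cells had first grown for 6 days with 100 ng/ml of the cytokine IL-4 on 40LB feeders, a fibroblast-derived line used to drive B cells in culture toward a germinal centre-like state. The group D6 is the whole culture at day 6, unsorted, so it holds every isotype and any feeder cells carried over. The other 4 groups spent 2 more days off the feeders in RPMI with no stimulus and were then sorted: IgE iGC, IgG1 iGC, IgE PC and IgG1 PC, where PC are plasma cells and iGC is the label of the non-plasma fraction. The cells are therefore culture-made counterparts of germinal centre cells and not cells of a tissue, and the labels used here give no strain, age or sex of the mice. In RNA from many cells, fewer cells of a type and less RNA per cell cannot be told apart.

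A germinal centre is the structure in a lymphoid follicle where activated B cells divide, mutate their antibody genes and compete for survival before some leave as plasma cells or memory cells. The 7 markers act at different points of that life. S1pr2 is a receptor for sphingosine 1-phosphate that restrains migration and holds cells in the follicle centre; Gcsam is an adaptor that binds the kinase Syk and affects B cell receptor signalling and motility; Rgs13 speeds the shut-off of G proteins behind chemokine receptors; and Fas is a death receptor that is high on germinal centre cells. Mybl1 (A-Myb) is a transcription factor of dividing centroblasts, Mef2b is a transcription factor that acts upstream of Bcl6, and Eaf2 is a partner of the ELL elongation factors of RNA polymerase II.

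All 7 are protein-coding genes of the mouse build GRCm38 in the GENCODE vM21 annotation. Gcsam lies at chr16:45610380-45622867 on the plus strand and Eaf2 at chr16:36792884-36875003 on the minus strand. S1pr2 lies at chr9:20962361-20976781 (minus), Fas at chr19:34290666-34327772 (plus), Mybl1 at chr1:9667415-9700209 (minus) and Rgs13 at chr1:144138654-144177372 (minus). Mef2b, at chr8:70139711-70167488 (plus), shares exons on its own strand with Borcs8, so a read from a common exon can be assigned to either gene; its expected count was fractional in 1 of the 15 libraries. No other marker shares exon sequence with another annotated gene. RefSeq promoter windows (GRCm38.p6, 250 bases before to 50 after the start site) were matched for 6 of the 7 genes. Shown are 4 of them, because Gcsam and Fas fell from iGC to PC while Eaf2 and, in CPM, Mef2b rose. Capitals mark matches to any of 8 motifs searched on both strands, listed with their shares after the sequences.
Gcsam, chr16:45610190-45610489, plus strand: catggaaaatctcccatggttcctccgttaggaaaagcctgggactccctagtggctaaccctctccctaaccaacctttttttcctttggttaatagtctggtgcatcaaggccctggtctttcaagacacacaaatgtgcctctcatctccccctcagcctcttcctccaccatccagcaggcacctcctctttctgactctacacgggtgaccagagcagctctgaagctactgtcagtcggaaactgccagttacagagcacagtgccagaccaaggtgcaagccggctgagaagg
Fas, chr19:34290409-34290708, plus strand: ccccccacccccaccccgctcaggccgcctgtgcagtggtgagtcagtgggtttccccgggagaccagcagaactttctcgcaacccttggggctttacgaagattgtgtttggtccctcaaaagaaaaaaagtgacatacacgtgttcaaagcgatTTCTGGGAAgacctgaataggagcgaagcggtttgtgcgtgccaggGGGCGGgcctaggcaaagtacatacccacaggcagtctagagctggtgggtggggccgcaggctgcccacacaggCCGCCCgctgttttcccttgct
Eaf2, chr16:36874777-36875076, minus strand: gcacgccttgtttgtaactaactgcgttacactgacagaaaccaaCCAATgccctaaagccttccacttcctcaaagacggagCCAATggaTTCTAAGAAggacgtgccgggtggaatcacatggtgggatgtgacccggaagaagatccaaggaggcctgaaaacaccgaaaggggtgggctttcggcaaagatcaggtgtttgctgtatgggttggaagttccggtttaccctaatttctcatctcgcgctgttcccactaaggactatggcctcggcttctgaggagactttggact
Mef2b, chr8:70152511-70152810, plus strand: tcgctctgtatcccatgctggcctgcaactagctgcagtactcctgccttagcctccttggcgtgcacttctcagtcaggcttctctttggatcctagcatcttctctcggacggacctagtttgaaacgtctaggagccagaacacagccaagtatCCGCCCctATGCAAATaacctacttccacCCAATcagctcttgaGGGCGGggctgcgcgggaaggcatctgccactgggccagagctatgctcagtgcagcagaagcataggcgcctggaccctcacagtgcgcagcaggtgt

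The Gcsam window held no match. The Fas window held TTCTGGGAA 93 bases before the start and GC boxes (GGGCGG, on either strand) at -47 and 29. The Eaf2 window shown, from 1 of its 3 annotated start sites, held TTCTAAGAA at -159 and CCAAT at -205 and -167. Mef2b held the octamer ATTTGCAT, read on the other strand as ATGCAAAT, at -85, CCAAT at -64 and GC boxes at -93 and -49. Of the windows not printed, that of S1pr2 held 1 GC box and that of Rgs13 no match, and the other Eaf2 windows held GC boxes, CCAAT and TATAAA. In all 32851 windows of 300 bases, TTCNNNGAA occurred in 8.3%, the octamer in 1.74%, the GC box in 35.7%, CCAAT in 37.4% and TATAAA in 13.6%. The searched TTCNNNNGAA (6.95% of windows), CTANNNNTAG (3.69%) and GAAANNGAAA (3.44%) had no match in the 4 printed windows. No match of 1 motif overlapped that of another in these 4 windows. These are matches of letters only.

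Libraries held 17740876 to 54067953 estimated counts, 15.3% to 21.73% of them immunoglobulin in PC and 1.391% to 1.622% elsewhere. Levels are given as CPM, estimated counts per 1000000 of the library total after scaling by trimmed mean of M values (TMM), and as TPM, which also divides by transcript length and alone serves to compare genes. Differences are log2 fold changes from edgeR's quasi-likelihood test over all 15 libraries, with their standard error (SE), and "called" means a Benjamini-Hochberg adjusted p under 0.05 over 15692 genes. These p-values rest on the spread between replicates within groups, estimated for each gene over all 5 groups and not only the groups compared. The sums of 5 B cell markers ran from 3640 to 8850 CPM. Those of T cell markers stayed at or below 0.7 CPM, of mast cell and basophil markers at or below 0.637 and of myeloid markers at or below 8.57. All 6 feeder fibroblast markers were above 1 CPM in every group; their sum was 240 to 365 CPM in D6, 39 to 75.6 in both iGC groups, 23.2 to 36.4 in IgE PC, and 193, 74 and 193 in replicates 1 to 3 of IgG1 PC. IgG1 PC replicates also differed most from each other: their pairwise chi-square per degree of freedom over genes was 98.5 and 70.4 for the pairs with replicate 1 and 29.4 for the other pair, against 4.48 to 24.6 in the other groups. The germinal centre and plasma labels matched their genes: Bcl6, the repressor that defines the germinal centre state, was at 124.4 ± 3.82 CPM (SD, n = 3) in IgE iGC and 17.3 ± 0.854 in IgE PC, and 10 of 10 plasma cell genes rose from iGC to PC in both isotypes.

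**Figure D1:**
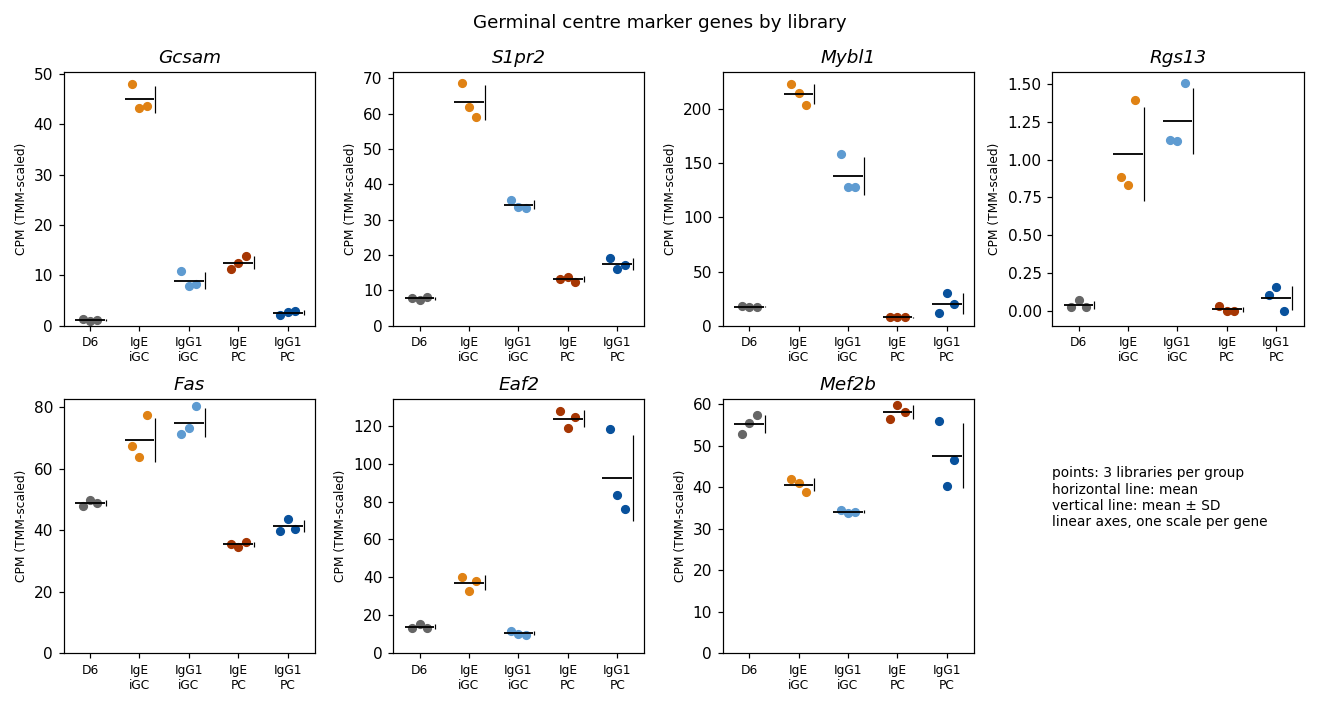
Level of each marker in every library, in TMM-scaled CPM on linear axes with 1 scale per gene; points are the 3 libraries of a group, horizontal lines means and vertical lines the mean ± SD. Gcsam, S1pr2, Mybl1 and Rgs13 peaked in iGC cells, Eaf2 peaked in PC, and Mef2b was lowest in IgG1 iGC.

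The receptor S1pr2 was highest in IgE iGC cells. Its level there was 68.8, 61.8 and 59.1 CPM in replicates 1 to 3, against 35.7, 33.6 and 33.5 in IgG1 iGC. In plasma cells it was 13.3, 13.9 and 12.4 CPM for IgE and 19.3, 16.1 and 17.2 for IgG1, and in D6 it was 7.87, 7.27 and 8.04. In CPM no library of any group overlapped a library of another, and each neighbouring pair in the order IgE iGC, IgG1 iGC, IgG1 PC, IgE PC, D6 was called different.

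The adaptor Gcsam separated the isotypes at both stages. IgE iGC libraries held 48.1, 43.2 and 43.6 CPM and IgG1 iGC libraries 10.9, 7.81 and 8.23. IgE PC held 11.3, 12.4 and 13.9 CPM, IgG1 PC 2.10, 2.72 and 3.00, and D6 1.38, 0.924 and 1.12. In CPM the lowest IgE PC library was above the highest IgG1 iGC library, so both IgE groups stood above both IgG1 groups. In TPM that pair had the reverse order, with means of 4.67 ± 0.440 in IgE PC and 5.69 ± 1.18 in IgG1 iGC (SD, n = 3). D6 was lowest, and its libraries rested on 39 to 61 estimated counts.

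Rgs13, the G protein regulator, was the scarcest of the 7 and was seen mainly in iGC cells. Its estimated counts were 39, 30 and 27 in IgE iGC and 46, 42 and 52 in IgG1 iGC. They were 1, 0 and 0 in IgE PC, 3, 8 and 0 in IgG1 PC, and 1, 3 and 1 in D6. Each iGC library held at least 27 counts and no other library more than 8, which leaves the order among the low groups unresolved at this depth.

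Fas, the death receptor, varied over a narrower range. It was at 67.2, 63.6 and 77.3 CPM in IgE iGC and 71.2, 73.1 and 80.3 in IgG1 iGC. Levels in D6 were 47.7, 49.8 and 48.7 CPM, in IgG1 PC 39.7, 43.5 and 40.4, and in IgE PC 35.4, 34.6 and 36.0. The iGC groups overlapped each other, and both stood above D6, which stood above both PC groups.

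Mybl1, the centroblast transcription factor, had the highest level per transcript length of the 7 in IgE iGC. It was at 222.5, 214.8 and 203.7 CPM in IgE iGC and 157.9, 127.5 and 127.6 in IgG1 iGC. IgE PC held 7.86, 8.55 and 7.70 CPM, D6 18.2, 17.2 and 17.3, and IgG1 PC 11.6, 30.1 and 19.7. The IgG1 PC libraries lay on both sides of D6 and differed by up to 2.6-fold among themselves (coefficient of variation 45.4%, against 3.04% to 12.7% in the other groups).

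Mef2b, the factor upstream of Bcl6, did not peak in iGC cells. IgE iGC held 41.9, 41.1 and 38.9 CPM and IgG1 iGC 34.5, 33.9 and 33.9, below the 52.9, 55.4 and 57.3 of D6. IgE PC held 56.4, 59.9 and 58.2 CPM, and IgG1 PC 55.9, 40.3 and 46.5. On the CPM scale the IgG1 PC libraries spanned from iGC-like to D6-like levels, replicate 2 being below the highest IgE iGC library.

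Eaf2, the elongation factor partner, was highest in plasma cells. IgE PC held 127.8, 119.1 and 124.6 CPM and IgG1 PC 118.1, 83.3 and 75.98. IgE iGC held 40.4, 32.9 and 38.2, D6 13.2, 15.4 and 12.99, and IgG1 iGC 11.8, 10.2 and 9.76. The IgE iGC libraries thus stood between the PC groups and the low pair of D6 and IgG1 iGC. IgG1 PC replicate 1, with the highest Eaf2 and Mef2b and the lowest Mybl1 of its group, also had the highest immunoglobulin share (21.73%, against 15.3% and 16.09%) and plasma cell marker sum (12200 CPM, against 8620 and 8040); the part of either in the spread was not tested.

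Per transcript length, the order of the markers turned over between stages. In IgE iGC the mean TPM was 110.6 for Mybl1, 85.0 for Fas, 65.9 for Eaf2, 51.5 for Mef2b, 31.3 for S1pr2, 28.2 for Gcsam and 1.12 for Rgs13. In IgE PC it was 131.3 for Eaf2, 44.2 for Mef2b, 25.8 for Fas, 4.67 for Gcsam, 3.41 for S1pr2 and 2.49 for Mybl1. Mybl1 thus went from the first to the sixth place and Eaf2 to the first. In IgG1 iGC, Fas (92.97 TPM) and Mybl1 (69.1) led and Eaf2 stood at 18.7 TPM, while D6 was led by Mef2b at 77.7 and Fas at 72.3 TPM with Gcsam at 0.873.

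**Figure D2:**
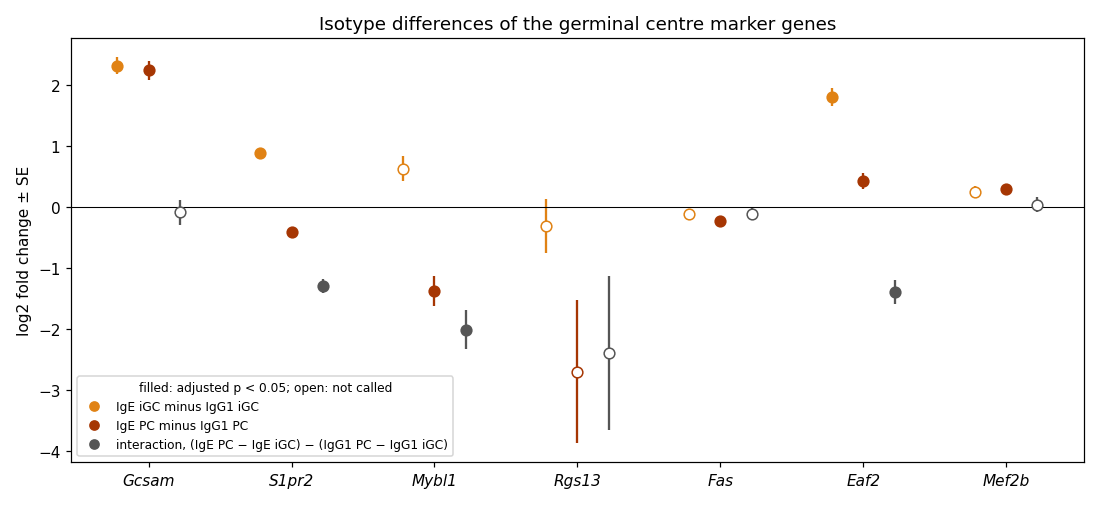
Log2 fold change with its SE for each marker, IgE against IgG1, in iGC (orange) and PC (red), and the difference of the iGC-to-PC steps between isotypes (grey); filled points are called. Gcsam was higher in IgE at both stages, while S1pr2 and Mybl1 were above 0 in iGC and below 0 in PC.

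Between isotypes at the iGC stage, Gcsam, Eaf2 and S1pr2 were higher in IgE cells and no marker was lower. The design sets IgE against IgG1 within a sorted stage to ask how the isotype bears on B cell fate. Of the 7 markers, 3 were called higher (1.99% of all genes tested were) and 0 lower (1.88%), and 5 had groups that did not overlap, as did 27.6% of all genes. Gcsam was 5.002-fold higher (log2 2.32, SE 0.14, edgeR adjusted p = 1.66e-07). Eaf2 was 3.50-fold higher (log2 1.81, SE 0.15, edgeR adjusted p = 8.14e-06) and S1pr2 1.85-fold higher (log2 0.89, SE 0.08, edgeR adjusted p = 8.14e-06). The median log2 difference of the 7 was 0.63, beside 0.01 over all genes.

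The other 4 markers did not pass in iGC cells. Mybl1 differed by log2 0.63 (SE 0.21, edgeR adjusted p = 0.137) and Mef2b by 0.25 (SE 0.09, edgeR adjusted p = 0.144), although neither gene's groups overlapped. Both were called when only the 6 iGC libraries were fitted (edgeR adjusted p = 0.00346 and 0.00753). Both were also called without IgG1 PC replicate 1 (0.00561 and 0.0088) or IgG1 PC replicate 2 (0.0116 and 0.0222), which left their folds at 0.63 to 0.64 and 0.26, and Mybl1 was called by DESeq2 (log2 0.64, adjusted p = 0.0477). Fas (log2 -0.11, edgeR adjusted p = 0.499) and Rgs13 (-0.30, edgeR adjusted p = 0.847) had overlapping groups. Plasma cell markers moved with this comparison: 5 of 10 plasma genes were called higher in IgE iGC, and the 6-marker sum was 551 to 641 CPM there against 281 to 296 in IgG1 iGC. Mean CPM in IgE PC and in IgG1 iGC was 123.8 and 10.6 for Eaf2, 12.5 and 8.97 for Gcsam, and 13.2 and 34.2 for S1pr2. The part of plasma-like cells in the iGC differences was not tested.

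Between plasma cells, the markers split by direction. Gcsam, Eaf2 and Mef2b were called higher in IgE PC and S1pr2, Mybl1 and Fas lower, 3 of 7 each way, beside 27.4% and 30.7% of all genes, so the share called is not far from that of genes at large. Groups did not overlap for 6 markers, nor for 59.2% of all genes. Gcsam differed by log2 2.24 (SE 0.15, edgeR adjusted p = 1.24e-08), the largest called difference among the 7, and Mybl1 by -1.37 (SE 0.25, edgeR adjusted p = 0.000326). S1pr2 was 1.32-fold lower in IgE PC (log2 -0.40, SE 0.08, edgeR adjusted p = 0.000532) and Fas 1.17-fold lower (-0.22, SE 0.07, edgeR adjusted p = 0.0126). Eaf2 (0.42, SE 0.13, edgeR adjusted p = 0.0124) and Mef2b (0.29, SE 0.09, edgeR adjusted p = 0.00835) were slightly higher. The median of the 7 was -0.22, beside -0.05 over all genes.

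Of the small PC differences, the Eaf2 call rested on the scaling and on single IgG1 PC libraries. The Mef2b call rested on the scaling and on which groups were fitted. Those of S1pr2 and Fas stayed called with each library left out in turn. With libraries scaled by their total counts, which lowered the median of all genes to -0.30 and the higher share of calls from 47.2% to 23.8%, Eaf2 was no longer called (log2 0.18, edgeR adjusted p = 0.167), nor was Mef2b (0.05, edgeR adjusted p = 0.589), and Mef2b was also lost when the PC libraries alone were fitted (0.29, edgeR adjusted p = 0.0616). Eaf2 was lost without IgG1 PC replicate 2 (0.36, edgeR adjusted p = 0.0522) or replicate 3 (0.30, edgeR adjusted p = 0.0646) and was 0.64 without replicate 1. Mef2b was 0.19 without replicate 2 but stayed called with each library left out in turn. Rgs13, at 1 count in 3 IgE PC libraries against 11 in IgG1 PC, was not called (edgeR adjusted p = 0.0607) but was called without IgG1 PC replicate 3 (0.00572), without IgE PC replicate 1 (0.0481) or with total-count scaling (0.0396). Borcs8, which shares exons with Mef2b, was 0.25 higher in IgE PC (edgeR adjusted p = 0.00448), close to the Mef2b value. Other markers moved with the isotype in PC. The plasma cell marker sum was 14400 to 16800 CPM in IgE PC and 8040 to 12200 in IgG1 PC, 8 of 10 plasma genes were called higher in IgE PC, the B cell marker sum was 3640 to 3840 CPM against 4790 to 4880, and the feeder sum was higher in IgG1 PC, as given above. The part of any of these in the PC differences and in the interaction below was not tested.

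From iGC to PC, Rgs13, Mybl1, S1pr2, Gcsam and Fas fell and Eaf2 and Mef2b rose, in both isotypes (Mef2b on the CPM scale only). All 7 were called in each, 2 higher and 5 lower, with no overlap between groups; groups did not overlap for 71.3% of all genes in the IgE step and 61.2% in the IgG1 step. Over all genes, 30.5% were called higher and 33.6% lower in the IgE step and 30.1% and 29.0% in the IgG1 step. In the IgE step Mybl1 fell by 4.73 on the log2 scale (SE 0.26, edgeR adjusted p = 1.08e-09), a 26.6-fold difference, and S1pr2 fell by 2.26 (SE 0.08, edgeR adjusted p = 1.53e-12). Gcsam fell by 1.84 (SE 0.13, edgeR adjusted p = 6.76e-09) and Fas fell by 0.97 (SE 0.07, edgeR adjusted p = 5.58e-09). Eaf2 rose by 1.74 (SE 0.14, edgeR adjusted p = 2.61e-08). The medians of the 7 were -1.84 in the IgE step and -0.97 in the IgG1 step, beside -0.08 and 0.01 over all genes.

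The IgG1 step ran the same way with other sizes. Mybl1 fell by 2.73 (SE 0.23, edgeR adjusted p = 2.66e-07), Gcsam fell by 1.76 (SE 0.15, edgeR adjusted p = 1.34e-07), S1pr2 fell by 0.97 (SE 0.08, edgeR adjusted p = 5.06e-08) and Fas fell by 0.86 (SE 0.07, edgeR adjusted p = 4.89e-08). Eaf2 rose by 3.12 (SE 0.15, edgeR adjusted p = 2.01e-10), which is 8.70-fold. For Rgs13 the pooled counts give a CPM 91.6 times higher in IgE iGC than in IgE PC (96 against 1 count, exact 95% Poisson interval 16.1 to 3660) and 14.3 times higher in IgG1 iGC than in IgG1 PC (140 against 11 counts, 7.77 to 29.4); these intervals cover counting error only. By edgeR the Rgs13 adjusted p was 8.78e-06 in IgE and 3.98e-05 in IgG1.

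Mef2b rose least, by 0.51 in IgE (SE 0.09, edgeR adjusted p = 7.73e-05) and 0.48 in IgG1 (SE 0.09, edgeR adjusted p = 0.000235), and its direction depended on the scale. With total-count scaling the IgE value was 0.05 (edgeR adjusted p = 0.592) while the median of all genes moved from -0.08 to -0.55 and the higher share of calls from 47.6% to 23.3%; for IgG1 the median became -0.22 and that share went from 50.9% to 32%. The deposited TPM are set to a fixed total per library and carry no TMM scaling. In TPM, mean Mef2b was lower in PC than in iGC, 44.2 ± 1.93 against 51.5 ± 1.55 (SD, n = 3) for IgE and 39.9 ± 2.68 against 43.8 ± 0.234 for IgG1. The shift of all genes in TPM was not computed. In CPM, Borcs8 rose by 0.43 in the IgE step (edgeR adjusted p = 3.62e-05) and differed by 0.13 in the IgG1 step (edgeR adjusted p = 0.122). Its mean TPM was also lower in PC than in iGC, 74.9 against 93.7 for IgE and 68.3 against 98.4 for IgG1. The other 6 markers kept their directions under these alternatives.

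**Figure D3:**
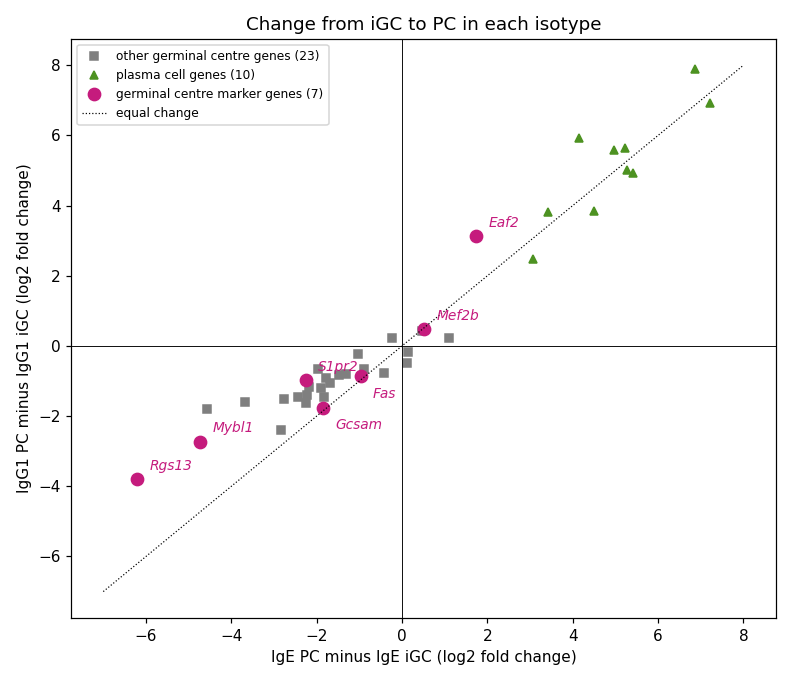
Log2 fold change from iGC to PC in IgE (horizontal) and IgG1 cells (vertical) for the 7 markers (pink circles), 23 other germinal centre genes (grey squares) and 10 plasma cell genes (green triangles); the dotted line marks equal change. Mybl1, Rgs13 and S1pr2 lie above the line in the quadrant of falling genes, Gcsam, Fas and Mef2b lie near it, and Eaf2 lies in the quadrant of rising genes with the plasma cell genes.

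The step from iGC to PC differed in size between isotypes for S1pr2, Mybl1 and Eaf2. The interaction term (the IgE step minus the IgG1 step) was called lower for these 3 and higher for 0 of 7, beside 23.1% and 19.8% of all genes. It was -1.29 for S1pr2 (SE 0.11, edgeR adjusted p = 5.35e-07), -2.00 for Mybl1 (SE 0.32, edgeR adjusted p = 0.000271) and -1.38 for Eaf2 (SE 0.20, edgeR adjusted p = 6.83e-05). For S1pr2 and Mybl1 the fall was larger in IgE cells, and IgE cells stood above IgG1 cells as iGC and below them as PC. Both of these isotype differences were called for S1pr2, but for Mybl1 the one in iGC was not (0.63, edgeR adjusted p = 0.137). For Eaf2 the rise was smaller in IgE cells, which started from a higher iGC level. Without IgG1 PC replicate 1, the library farthest from its group, the 3 values were -1.22, -2.27 and -1.17, all called (edgeR adjusted p = 1.02e-07, 2.11e-06 and 2.56e-06).

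Gcsam showed no such difference: its interaction was -0.08 (SE 0.20, edgeR adjusted p = 0.783), although its isotype gap was the widest called gap at both stages. Fas (-0.11, edgeR adjusted p = 0.394), Mef2b (0.04, edgeR adjusted p = 0.827) and Rgs13 (-2.39, SE 1.26, edgeR adjusted p = 0.142) were not called either. The Rgs13 value ran from -4.45 (without IgE PC replicate 1) to -1.38 (without IgG1 PC replicate 2) with 1 library left out and was called only without IgG1 PC replicate 3 (-3.01, edgeR adjusted p = 0.0217), and Fas was called with total-count scaling (-0.35, edgeR adjusted p = 0.019). Total-count scaling moved the median interaction of all genes from -0.06 to -0.30 and the higher share of calls from 46.1% to 21.6%.

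**Figure D4:**
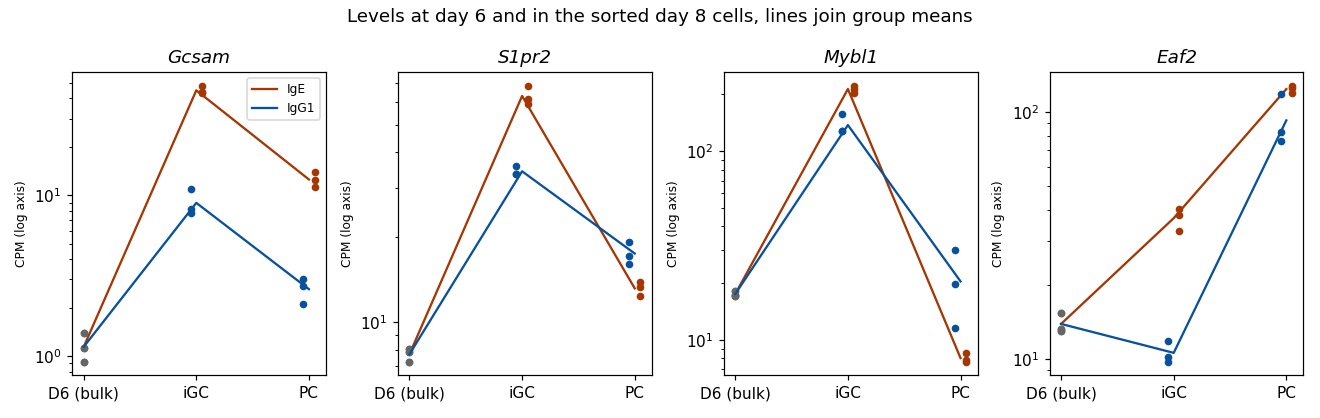
CPM (log axes) of Gcsam, S1pr2, Mybl1 and Eaf2 in bulk D6 cells and in sorted iGC and PC of each isotype; points are libraries and lines join group means. The IgE and IgG1 lines cross between iGC and PC for S1pr2 and Mybl1 and do not cross for Gcsam and Eaf2. The Mybl1 difference between isotypes in iGC was not called.

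Against the unsorted D6 culture, Gcsam, Mybl1, S1pr2, Rgs13 and Fas were higher in both iGC groups and Mef2b was lower. All 4 comparisons use the same D6 libraries, so their values are given side by side and no agreement between them is read. In IgE iGC, 6 markers were called higher (32.8% of all genes) and 1 lower (36.3%); in IgG1 iGC, 5 were called higher (32.4%) and 2 lower (36.0%). Gcsam was 39.2-fold higher in IgE iGC (log2 5.29, SE 0.17, edgeR adjusted p = 1.4e-12) and differed by log2 2.97 in IgG1 iGC. Mybl1 was 12.2-fold higher in IgE iGC (log2 3.60, edgeR adjusted p = 1.14e-08), beside 2.97 in IgG1 iGC (edgeR adjusted p = 7.07e-08), and S1pr2 was 8.19-fold higher (3.03, edgeR adjusted p = 3.29e-13), beside 2.15. Rgs13, at 5 counts over the D6 libraries, was 24.3 times higher in CPM in IgE iGC (exact 95% Poisson interval 10.1 to 76.5) and 31.3 times in IgG1 iGC (13.1 to 97.8).

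Fas was 1.42-fold higher in IgE iGC than in D6 (edgeR adjusted p = 8.79e-06) and 1.54-fold higher in IgG1 iGC (edgeR adjusted p = 9.74e-07). Mef2b was 1.36-fold lower in IgE iGC (edgeR adjusted p = 0.000308) and 1.62-fold lower in IgG1 iGC (edgeR adjusted p = 3.49e-06). Eaf2 was 2.68-fold higher in IgE iGC (edgeR adjusted p = 4.78e-07) but 1.31-fold lower in IgG1 iGC (log2 -0.39, edgeR adjusted p = 0.0327). The last call was lost without D6 replicate 2 (-0.30, edgeR adjusted p = 0.124), IgG1 iGC replicate 2 (-0.35, 0.094) or 3 (-0.32, 0.114), IgE PC replicate 3 (-0.33, 0.0755) or IgG1 PC replicate 2 (-0.36, 0.056), with no filter on low counts (-0.38, 0.0802) and without immunoglobulin genes (-0.33, 0.0678). Sorted cells and the D6 culture also differed in time, in feeder contact and in the feeder marker sum, whose part in these values was not tested.

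Gcsam, S1pr2 and Eaf2 were higher in both PC groups than in D6 on the CPM scale, though not S1pr2 in IgE PC by TPM, as given below. In IgE PC, 3 markers were called higher (36.9% of all genes) and 2 lower (39.5%), and in IgG1 PC 3 higher (35.9%) and 2 lower (36.0%). Gcsam differed by log2 3.45 in IgE PC and 1.21 in IgG1 PC, Eaf2 by 3.16 and 2.73, and S1pr2 by 0.77 and 1.18. Mybl1 was called lower in IgE PC (-1.13, edgeR adjusted p = 0.000928), and in IgG1 PC it was not called (0.24, edgeR adjusted p = 0.351). Without IgG1 PC replicate 1 that Mybl1 value was 0.51 (edgeR adjusted p = 0.00784), without replicate 2 it was -0.13 (edgeR adjusted p = 0.507), and with total-count scaling it was -0.03.

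Fas was lower than D6 in IgE PC (-0.46, edgeR adjusted p = 1.8e-05) and IgG1 PC (-0.24, edgeR adjusted p = 0.00547). Mef2b was not called in IgE PC (0.07, edgeR adjusted p = 0.438; -0.46 with total-count scaling) and was called lower in IgG1 PC (-0.22, edgeR adjusted p = 0.0314). The IgG1 PC call for Mef2b was lost without D6 replicate 2 (-0.22, edgeR adjusted p = 0.0665) or 3 (-0.19, 0.0969), IgE PC replicate 3 (-0.17, 0.0965) or IgG1 PC replicate 2 (-0.098, 0.212) or 3 (-0.20, 0.0864), and the value was -0.34 without IgG1 PC replicate 1. It was also lost when only these groups were fitted (-0.20, edgeR adjusted p = 0.161) and without immunoglobulin genes (-0.17, 0.0909). Rgs13 was not called in either (edgeR adjusted p = 0.274 and 0.277), and in IgG1 PC it was called without replicate 3 (log2 1.68, edgeR adjusted p = 0.034). In TPM, mean S1pr2 was lower in IgE PC than in D6 (3.41 ± 0.414 against 4.34 ± 0.635, SD, n = 3), the opposite of the CPM order. Total-count scaling moved the median of all genes from -0.04 to -0.57 for IgE PC and from 0.01 to -0.27 for IgG1 PC, and the higher share of calls from 48.3% to 26.8% and from 50% to 35%.

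A list of 23 other germinal centre genes mostly fell with the markers in the PC step. In IgE cells 18 fell and 2 rose (median -1.79), and in IgG1 cells 20 fell and 1 rose (median -0.91). Of all genes, 33.6% fell and 30.5% rose in the IgE step and 29.0% and 30.1% in the IgG1 step. These shares stand beside all list counts of the IgE and IgG1 steps that follow. The 23 include genes of B cells in general, such as Pax5 and Ebf1. The B cell marker sum was also lower in PC. It was 8500 to 8850 CPM in IgE iGC and 3640 to 3840 in IgE PC, and 8570 to 8790 in IgG1 iGC and 4790 to 4880 in IgG1 PC. The part of a wider loss of B cell genes in the list counts was not tested. Bcl6 fell by 2.84 in IgE and by 2.39 in IgG1. Pou2af1, a B cell coactivator, rose by 0.47 and 0.41. Cxcr4, the receptor that places cells in the dark zone, rose by 1.11 in IgE and differed by 0.22 in IgG1 (edgeR adjusted p = 0.117). Between isotypes in iGC cells 2 of the 23 were called higher in IgE and 0 lower, beside 1.99% and 1.88% of all genes. They were Nuggc, a GTPase gene of germinal centre cells, higher by 0.76, and Klhl6, higher by 0.31 (edgeR adjusted p = 0.0084 and 0.00614). Between the PC groups 5 were higher and 13 lower in IgE (27.4% and 30.7% of all genes), and the interaction was called higher for 3 and lower for 15 (19.8% and 23.1%).

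Relatives and partners of the markers did not all move as the markers did. Among 12 tested genes of follicle positioning that act with S1pr2, 10 fell and 1 rose in the IgE step, and 10 fell in the IgG1 step. S1pr1, the receptor that draws cells out to the blood, fell by 0.49 in IgE and by 0.95 in IgG1, and its interaction was 0.46 (edgeR adjusted p = 0.0302), opposite in sign to that of S1pr2. S1pr3 fell by 3.31 and 1.79. Of 9 RGS genes other than Rgs13, 5 fell and 2 rose in the IgE step, and 3 fell and 3 rose in the IgG1 step. The IgG1 counts are near the shares of all genes and are no result about the family. Rgs18 fell by 5.33 and 3.78 and Rgs10 rose by 2.97 and 3.17, while Rgs2 fell by 4.40 in IgE and by 0.76 in IgG1. The Rgs18 values rested on few counts per library, 31 to 64 in IgE iGC and 50 to 60 in IgG1 iGC. Its PC libraries held 0 to 2 counts for IgE and 0 to 9 for IgG1.

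The transcription factor families likewise held genes that rose and genes that fell. Mybl2, the cell-cycle member of the MYB family, fell by 1.16 in IgE and rose by 0.38 in IgG1 (interaction -1.54, edgeR adjusted p = 3.75e-07), and Myb fell by 1.04 in IgE and differed by 0.09 in IgG1 (edgeR adjusted p = 0.508). Of 7 MEF2 and class IIa histone deacetylase genes, 3 rose and 3 fell in each step. All genes also split about evenly, so these counts are no result about the family. Mef2c fell by 0.42 and 0.76 where Mef2b rose. Hdac9, a class IIa deacetylase that binds MEF2 proteins, rose by 2.16 in IgE and 0.54 in IgG1, from 41.3 ± 2.78 CPM in IgE iGC to 184.3 ± 11.8 in IgE PC (SD, n = 3), and its interaction was 1.62 (edgeR adjusted p = 6.3e-07).

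Among 6 genes of the ELL and EAF group beside Eaf2, 4 rose and 1 fell in the IgE step, and 4 rose and 2 fell in the IgG1 step. Ell2, the elongation factor that promotes secretory immunoglobulin messages, rose by 3.06 and 2.49, and Eaf1 rose by 0.45 and 0.19. Ell3 fell by 5.01 and 1.84. Of 9 tested genes of the Fas death pathway, 3 rose and 2 fell in the IgE step, and 6 rose and 1 fell in the IgG1 step; the ligand gene Fasl did not pass the filter. The IgE shares are near the 30.5% and 33.6% of all genes and are no result about the pathway. Cflar, which blocks caspase-8 at the receptor, rose by 1.47 and 0.27 (interaction 1.203, edgeR adjusted p = 2.73e-06), and Bid, a caspase-8 substrate, fell by 1.05 and 0.90.

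Of 6 genes of Gcsam-linked signalling, 2 rose and 3 fell in each step, which is no result about a list this short. Syk, the kinase that Gcsam binds, was the 1 gene of this list called between isotypes in iGC cells (1.99% of all genes were called higher there and 1.88% lower). It was lower in IgE by log2 -0.75 (edgeR adjusted p = 6.19e-06), where Gcsam was higher by 2.32, and Syk fell in both PC steps, by 0.75 in IgE and by 0.42 in IgG1.

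**Figure D5:**
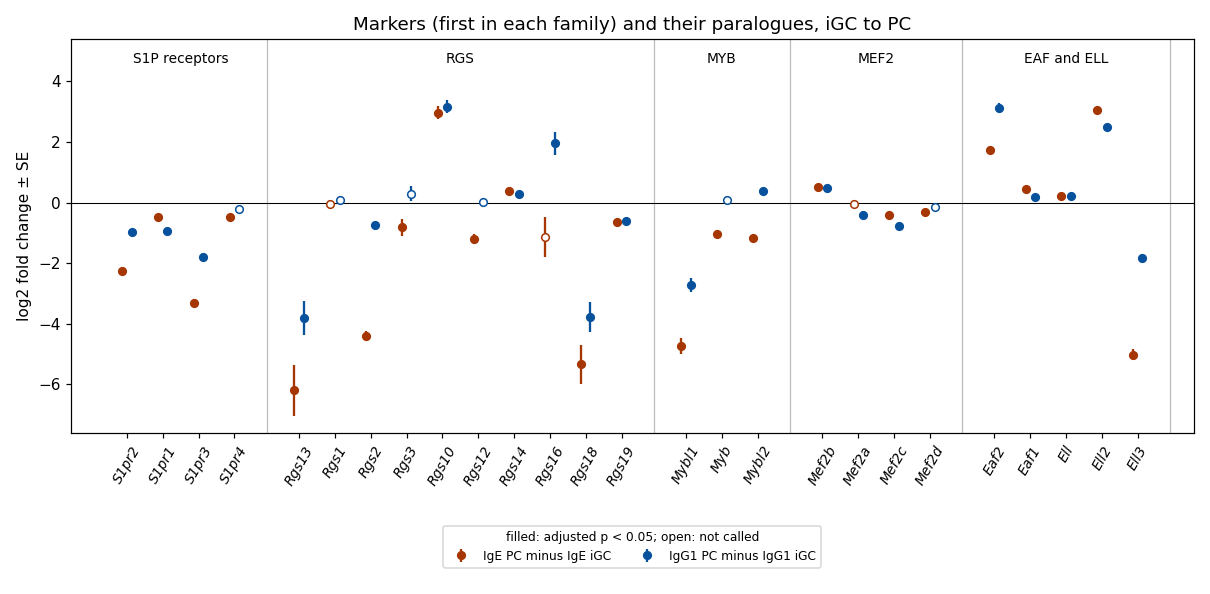
Log2 fold change (± SE) from iGC to PC in IgE (red) and IgG1 (blue) for S1pr2, Rgs13, Mybl1, Mef2b and Eaf2, each first in its block and followed by its paralogues or partners; filled points are called. Rgs10 rose where Rgs13 fell, Mef2c fell where Mef2b rose, and Ell3 fell where Eaf2 rose.

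The genes whose profile over the 15 libraries lay nearest to each marker were found by the root mean square (RMS) difference of log2 CPM after centring each gene, among 8917 genes. S1pr2 was followed by Sh2d2a (0.21), Otub2 (0.23) and Pitpnc1 (0.23), where S1pr2 itself varied by an RMS of 1.06. Mybl1 (1.85) had March1 at 0.44, Ell3 at 0.56 and Hemgn at 0.59. Rgs13 (1.91) had Mybl1 itself as its nearest gene at 0.63, then Cr2, the complement receptor CD21, at 0.67. Outside iGC the Rgs13 profile rested on 0 to 8 counts per library. Only genes with a mean of at least 10 CPM in a group were searched, so genes as scarce as Rgs13 were not compared. Eaf2 (1.42) had Endou at 0.45, Sv2b at 0.46 and Txndc11 at 0.46, and the small variation of Mef2b (0.30) was matched by Themis2 at 0.08.

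Gcsam had no near neighbour: its closest gene, Trib2, lay at 0.94 and the next, Ifi206, at 0.97, where Gcsam varied by an RMS of 1.83. Trib2, a pseudokinase gene, was at 46.9 ± 2.56 CPM in IgE iGC, 26.7 ± 1.25 in IgG1 iGC and 11.6 ± 0.942 in IgE PC (SD, n = 3). It thus shared the IgE iGC peak of Gcsam with a narrower isotype gap. These likeness values describe the libraries and carry no test, since the 15 libraries share 5 group means.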

How the data were processed

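The deposited table of the whole series holds RSEM expected counts and TPM per gene for 15 libraries, per the file headers. The authors' TPM were used as deposited and only for levels between genes and as an alternative. The submitters' processing notes name cutadapt 1.9.1, STAR 2.5.2a, RSEM 1.3.0, DESeq2 1.12.3 and the build GRCm38; the annotation release is not given in the sources used here. Libraries were strand-specific 76 bp single-end poly(A) RNA reads, per the labels' protocols.

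Expected counts were rounded to whole numbers, filtered with filterByExpr (minimum count 10, minimum total 15), scaled by TMM and fitted with edgeR 4.0.16 (R 4.3.3) in 1 quasi-likelihood model of the 5 groups with no covariate, leaving 10 residual degrees of freedom. P-values were adjusted by Benjamini-Hochberg over 15692 genes at a threshold of 0.05. The common dispersion corresponded to a biological coefficient of variation of 10.4%. Of 51912 identifiers, 51633 matched a symbol. The scripts were tested on simulated data. Samples were grouped by their titles, and all 15 enter the fit.

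Genes beyond the 7 markers were named from lists of relatives, partners, other germinal centre genes and plasma cell genes, and by the likeness rule (the 3 nearest genes with a mean of at least 10 CPM in 1 group). The members and the lists were chosen with earlier results of these data known. Alternatives tried were total-count scaling, DESeq2 1.42.0, no filter, no immunoglobulin genes, only the groups compared, a replicate block, each library left out and TPM in place of CPM.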

Additional observations from a re-analysis of the deposited data

Results flagged for a closer look

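S1pr2, Mybl1 and Eaf2 took steps of unequal size into PC in IgE and IgG1 cells, by the interaction term of edgeR's quasi-likelihood test. The difference was -1.29 on the log2 scale for S1pr2 (Benjamini-Hochberg adjusted p = 5.35e-07), with values from -1.35 to -1.22 when each library was left out in turn. It was -2.005 for Mybl1 (edgeR adjusted p = 0.000271), from -2.27 to -1.62 with a library left out, and this gene varied most between the IgG1 PC replicates. It was -1.384 for Eaf2 (edgeR adjusted p = 6.83e-05), from -1.51 to -1.17 with a library left out. Groups of 3 libraries were not tested for a single outlying library.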

How the results depend on the processing

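For the comparison of IgE with IgG1 iGC cells, 607 genes were called; the count was 937 with DESeq2, 1503 when only these 6 libraries were fitted, and 323 to 1218 with 1 library left out, the highest without IgG1 PC replicate 1. Markers called there numbered 3, became 5 when only those libraries were fitted, and ranged from 3 to 5 with 1 library left out. With total-count scaling Mef2b in IgE PC against D6 became -0.46, Mybl1 in IgG1 PC against D6 -0.026 and the Mef2b interaction -0.19. Over the libraries left out in turn, the Gcsam interaction ran from -0.24 to 0.026 (above 0 without IgG1 iGC replicate 2 or IgG1 PC replicate 3), the Mef2b interaction from -0.068 to 0.17 and Mybl1 in IgG1 PC against D6 from -0.13 to 0.51 (both lowest without IgG1 PC replicate 2); none of these 3 was called with all libraries. With TPM in place of CPM, log2 ratios became -0.35 for S1pr2 in IgE PC against D6, and -0.22 and -0.14 for Mef2b in IgE and IgG1 PC against iGC. The cause of these changes was not tested, beyond the fewer libraries fitted. The replicate numbers are not stated to pair samples, and no comparison had every correlation of same-numbered deviations above 0.1; a fit with a replicate block called 580 genes and 3 markers between iGC groups, and all 63 marker values kept their direction and call. Depth limits Rgs13 alone among the markers, at 0 to 8 estimated counts outside iGC.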
